A study of Mus musculus with 15 samples.

Results

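Unipolar brush cells are excitatory interneurons of the cerebellar cortex that arise from the rhombic lip, the germinal zone that also gives rise to granule neuron progenitors. They settle in the granule cell layer, receive a mossy fiber on a brush-like dendrite and relay its signal to granule neurons. Immature and mature unipolar brush cells keep the transcription factor Eomes (also called Tbr2). Calb2 (calretinin) marks 1 of their subtypes, and the transcription factor Lmx1a marks the lineage.

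Eomes-positive cells were picked from Drop-seq libraries of 15 mice by a count rule that used no condition label. A cell needed at least 500 unique molecular identifiers (UMIs) and 500 genes, and then at least 2 Eomes UMIs, or 1 Eomes UMI with at least 1 UMI of Calb2 or Lmx1a, and 0 UMIs of the mitotic genes Mki67 and Top2a. The rule kept 188 of 38351 cells, namely 72 of 7366 in wild-type (WT) cerebellum, 21 of 18447 in vehicle-treated tumors and 95 of 12538 in vismodegib-treated tumors. As reference served 18842 Eomes-negative cells with at least 1 UMI of Rbfox3, which encodes the neuronal splicing factor NeuN. The study uses Rbfox3 among its markers of granule neuron differentiation. Of the reference cells, 9627 had 0 UMIs of Mki67 and Top2a and are called the non-cycling reference. Levels of the 6 genes that defined these classes are given as a description without a test. Mki67 and Top2a were at 0 in the Eomes-positive cells by the rule. Rbfox3, which the rule did not ask of these cells, was held by 25 of 72 in WT, 13 of 21 in vehicle and 76 of 95 in vismodegib tumors, without a correction for depth.

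The 5 WT mice were C57BL/6 animals without the transgene, sampled at postnatal day 7. The 10 tumor mice carried Math1-Cre and the SmoM2/EYFP loxP/loxP allele (M-Smo), in which Cre under a cloned Atoh1 promoter sequence switches on a constitutively active Smoothened in the Atoh1 lineage. These mice received 3 daily injections of vehicle or of vismodegib, a Smoothened inhibitor, at 75 mg per kg from day 12 to day 14, and tumors were taken at day 15. The droplet device was PDMS for WT cells and glass for tumor cells, so that age, genotype and device cannot be told apart in any comparison of WT with tumors.

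All barcodes of an animal, before the limits on UMIs and genes, held between 2310474 and 17708677 UMIs. The median kept cell of an animal held between 1087 and 2592. Eomes-positive cells were about as deep as reference cells in WT, with medians of 1342 and 1561 UMIs, and in vehicle tumors, with 1894 and 1921. They were deeper in vismodegib tumors, at 2542 against 1914. The non-cycling reference was shallower than the Eomes-positive cells in every group, with medians of 1206, 1505 and 1638, and shares of cells with a UMI are given beside it without a correction for depth. A total of 41 barcodes were kept in more than 1 library, and none of them was an Eomes-positive cell. The range of counts per animal was 7 to 23 in WT, 3 to 6 in vehicle tumors and 4 to 52 in vismodegib tumors, where the animal with 52 stood alone.

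The threshold left a wide margin of cells outside. Cells with 1 Eomes UMI and no Calb2 or Lmx1a numbered 117 in WT, 106 in vehicle and 184 in vismodegib tumors. A further 32, 13 and 40 cells met the Eomes condition but held a UMI of Mki67 or Top2a. Among the cells kept, 14 of 72 in WT, 4 of 21 in vehicle and 31 of 95 in vismodegib entered through 1 Eomes UMI with a partner. At least 3 Eomes UMIs were held by 28, 4 and 11 cells, and at least 5 by 13 WT cells, 0 vehicle cells and 1 vismodegib cell.

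Eomes lies on chr9:118478212-118486132 of mm10 (plus strand), Calb2 on chr8:110137502-110168210 (minus strand) and Lmx1a on chr1:167689237-167848741 (plus strand), all protein-coding genes in GENCODE M21. Within the Eomes-positive cells of each WT animal, Eomes stood at 1629, 1739, 1744, 1956 and 3204 CPM (counts of the gene per 1000000 UMIs of the summed cells). In vehicle tumors it stood at 1623, 1274, 1161, 1022 and 587, and in vismodegib tumors at 787, 1104, 513, 710 and 656. All 5 WT values lay above all 10 tumor values. The rule set a minimum of Eomes UMIs, which weighs more in shallow cells. The median depth of the Eomes-positive cells was 1342 UMIs in WT, 1894 in vehicle and 2542 in vismodegib tumors. Nothing is therefore read from this order.

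The partner genes, which the rule also used, overlapped between the tissues. Lmx1a was found in the Eomes-positive cells of all 5 WT animals, at 131, 56.1, 109, 69.9 and 128 CPM, against 130 in vehicle 5, 23.4 in vismodegib 5 and 0 in the other 8 tumors. Calb2 ran from 373 to 2692 in WT, from 0 to 2434 in vehicle and from 73.3 to 1031 in vismodegib tumors, and these ranges overlapped. Outside the cells picked by the rule, Calb2 stood in reference cells at 8.73 to 27.9 in WT, 12.6 to 30.1 in vehicle and 75.1 to 207 in vismodegib tumors, a description without a test. Among the cells with at least 2 Eomes UMIs, which the rule had not asked for a partner, Calb2 was present in 15 of 58 in WT, 6 of 17 in vehicle and 6 of 64 in vismodegib. Lmx1a was present in 7 of 58 of those WT cells and in 0 of 81 tumor cells.

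The share of Eomes-positive cells fell from WT to vehicle tumors and was higher in vismodegib than in vehicle tumors. WT animals held 0.999, 1.00, 0.806, 1.08 and 0.858% of kept cells (mean 0.949% ± 0.113, SD, n = 5). Vehicle tumors held 0.0912, 0.168, 0.181, 0.171 and 0.0734% (0.137% ± 0.0505, n = 5), and vismodegib tumors 0.406, 0.544, 0.477, 1.24 and 0.563% (0.645% ± 0.336, n = 5). No vehicle tumor overlapped with either other group, and vismodegib 4 lay above the WT values while the other 4 vismodegib tumors lay below them. Both differences reached p = 0.00794 in 2-sided exact permutation tests, the smallest value that 5 against 5 animals can give, with an adjusted p of 0.00794 over the 4 tests of shares.

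**Figure D1:**
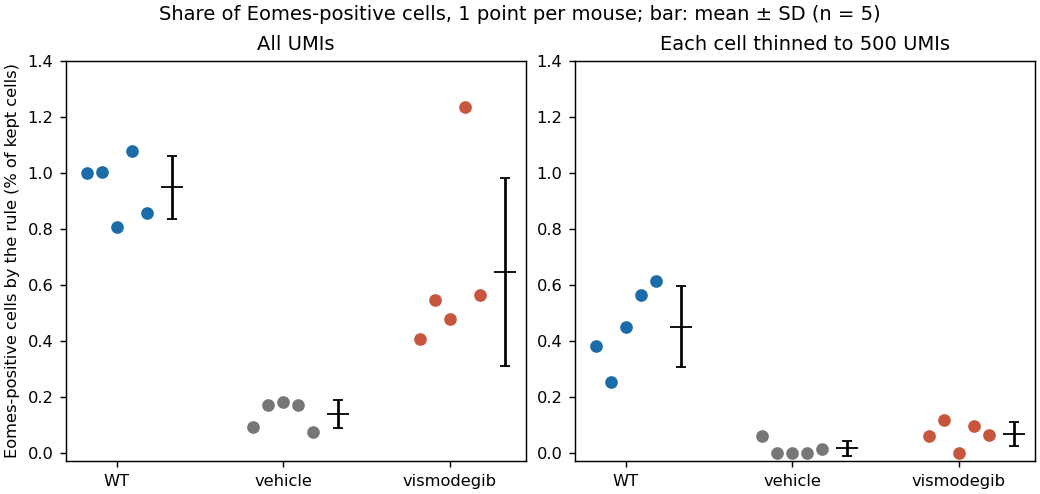
Share of Eomes-positive cells among kept cells (y axis, percent) with 1 point per mouse and the mean ± SD of 5 mice in each group, for all UMIs of a cell and after thinning each cell to 500 UMIs. With all UMIs the vehicle tumors lie between 0.0734 and 0.181% and below every other mouse, while after thinning the means are 0.451% in WT, 0.0146% in vehicle and 0.0665% in vismodegib.

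Counted against reference cells, cycling ones included, the order was the same. Per 100 Eomes-positive plus reference cells there were 2.73 ± 0.394 Eomes-positive cells in WT, 0.261 ± 0.0675 in vehicle and 1.12 ± 0.480 in vismodegib tumors (n = 5 each, exact permutation p = 0.00794 and adjusted p = 0.00794 for both comparisons with vehicle). An earlier split of the tumors by expression into 2 sets, taken from these same data and not described by the study, placed vehicle 1 and 3 and vismodegib 1 to 3 in the first. Vismodegib stayed above vehicle when animals were permuted within the sets only (exact p = 0.01, the smallest value that the 100 arrangements allow). Since no vehicle tumor overlapped with a vismodegib tumor, this value was fixed in advance.

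At equal depth few cells met the rule, and the difference between the tumor groups did not pass. With every cell thinned to 500 UMIs before the rule was applied, 33 WT, 3 vehicle and 10 vismodegib cells were left, and the shares were 0.451% ± 0.145, 0.0146% ± 0.0264 and 0.0665% ± 0.0443. WT remained above vehicle (exact permutation, adjusted p = 0.0159). Vismodegib against vehicle no longer passed, with an adjusted p of 0.127 among kept cells and 0.135 among Eomes-positive plus reference cells by the exact permutation test. Leaving out vismodegib 3 alone brought these to 0.0423 and 0.0476.

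Free RNA in droplets gives a further limit on the shares in all 3 groups. Cells with at least 2 UMIs of the microglial gene C1qb, a cell type that should lack Eomes, met the rule in 0 of 82 cases in WT, which allows a share of up to 3.66%, in 1 of 186 (0.538%, 95% Clopper-Pearson interval 0.0136 to 2.96%) in vehicle and in 2 of 328 (0.610%, interval 0.0739 to 2.19%) in vismodegib tumors. Their median depths were 1927, 2350 and 2345.5 UMIs. Intervals and limits of this kind cover counting error only. The pooled shares of all kept cells, 0.977% in WT, 0.114% in vehicle and 0.758% in vismodegib tumors, lay within these limits and could not be told from this level. With 82 to 328 such cells a group, shares of this size could not have been separated from it. The WT limit is that of 3 counts. Any Eomes UMI was held by 0 of 82, 1 of 186 and 5 of 328 C1qb cells, against 4.41, 1.08 and 3.42% of kept cells, without a test. Droplets that held 2 cells were not separated from free RNA. Cells with at least 3 UMIs of 5 endothelial genes met the rule in 0 of 67, 0 of 64 and 0 of 70 cases, and cells with 3 UMIs of 5 fibroblast genes in 0 of 190, 0 of 123 and 1 of 201. Of the 190 in WT, 5 held an Eomes UMI and 2 held at least 2, and these 2 were left out for a UMI of Mki67 or Top2a.

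Genes outside the rule differed between the WT cells and the reference. UMIs of the cells were summed per animal and class, and the Eomes-positive sum was compared with the reference sum of the same animal in the 6 animals with at least 10 Eomes-positive cells, WT 1, 2 and 4 and vismodegib 2, 4 and 5. Of 9180 genes tested, 68 (0.741%) were higher and 396 (4.31%) lower in the WT cells at an adjusted p under 0.05, and 29 (0.316%) higher and 209 (2.28%) lower in the vismodegib cells (edgeR). These counts leaned on scaling. The median log2 difference of all genes in WT was −0.49 with TMM and −0.01 with scaling by total UMIs, where the WT calls split into 154 higher (1.68%) and 140 lower (1.53%). The genes of WT and of vismodegib that are described next passed with either scaling and with either the whole or the non-cycling reference, a criterion chosen after the data were seen. Gene lists and the mean of both tissues follow later, with genes that passed in the first fit alone. Of the 5751 genes tested in all 4 fits, 21 (0.365%) were higher and 11 (0.191%) lower in WT, and 6 (0.104%) higher and 10 (0.174%) lower in vismodegib.

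Neuronatin (Nnat, chr2:157560078-157562522, plus strand), a small membrane protein of developing neurons, was carried by most of the WT cells. In the Eomes-positive cells of WT 1 to 5 it stood at 7096, 7179, 5450, 4588 and 8075 CPM, against 466 to 683 in their reference cells. All 5 animals showed the difference, including WT 3 and WT 5, which were too small for the fit. The log2 difference was 2.84 (SE 0.205, edgeR quasi-likelihood test, adjusted p = 1.87e-39), and 3.36 with total-UMI scaling. A Nnat UMI was present in 64 of 72 Eomes-positive cells (88.9%) and in 52.2% of the non-cycling reference.

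Elmod1 and Rph3a were rare in WT reference cells. Elmod1 (chr9:53911457-53975301, minus strand) encodes a GTPase-activating protein for Arf family GTPases and stood at 342, 897, 218, 442 and 769 CPM against 20.9 to 41.8 in the reference (log2 difference 3.46, SE 0.401, adjusted p = 7.69e-15, edgeR). Rph3a (chr5:120940499-121010092, minus strand) encodes rabphilin, a synaptic vesicle protein that binds Rab3, and stood at 342, 1010, 109, 326 and 641 against 6.98 to 34.8 (3.87, SE 0.429, adjusted p = 3.06e-16, edgeR). In every WT animal both genes were higher in the Eomes-positive cells. They were found in 38.9 and 33.3% of the 72 cells, against 4.57 and 5.78% of the non-cycling reference.

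Grp and Tac2, both neuropeptide genes, were found in few reference cells. Grp, which encodes gastrin-releasing peptide, was present in 16 of 72 cells and in all 5 WT animals, at 289, 449, 327, 373 and 1410 CPM. None of the 1159 non-cycling WT reference cells held a Grp UMI, so that the pooled level was at least 249-fold higher against a limit of 3 counts over the group. Tac2, the neurokinin B precursor, was present in 10 of 72 cells against 3 of the non-cycling reference cells (pooled ratio 71.1, 95% counting interval 19.9 to 386). Chgb, which encodes the dense-core granule protein chromogranin B, was higher by 2.38 on the log2 scale (SE 0.23, adjusted p = 1.03e-21, edgeR), and was found in 66.7% of cells against 32.9%.

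The remaining WT genes covered signalling, transport and transcription. Dclk3, a doublecortin-like kinase, was present in 22 of 72 cells against 2 of 1159 (pooled ratio 274, counting interval 70.6 to 2352). Dync1i1, a dynein intermediate chain, was found in 26.4% of cells against 1.21%. The transcription factor Neurod6 stood at 736, 1122, 545, 652 and 1538 CPM against 50.6 to 139 in the reference (log2 difference 2.19, SE 0.297, adjusted p = 9.85e-11, edgeR). Chn2, a Rac GTPase-activating protein, was higher by 3.23 (SE 0.537) and Negr1, an adhesion molecule, by 2.40 (SE 0.487). Adcy2, Inadl, Ramp3, Ehd3, Akap7, Sec11c, Stmn4, Celf4 and Nrep were also among the 21. Ramp3 and Celf4 did not pass without WT 1, nor Sec11c without WT 4 (adjusted p = 0.14, 0.206 and 0.265, edgeR).

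The 11 genes that were lower in WT included markers of other cells of the cerebellum. Pcp2, Car8 and Calb1, which mark Purkinje neurons, had log2 differences of −4.29, −3.79 and −3.25. Ttr, a choroid plexus gene, fell by 5.47, and its reference level ran from 11.2 to 3042 CPM between WT animals. Apoe and Ptn, which are high in glia, stood at −2.64 and −1.94. The others were Dbi, Arl3, Rplp1, Rpl4 and Pcp4. Calb1 and Arl3 did not pass without WT 1, nor Ttr without WT 4 (adjusted p = 0.163, 0.0536 and 0.591, edgeR). With cells that held at least 2 UMIs of another cell type's markers left out of both classes, Pcp2, Car8 and Calb1 stood at −0.26, −0.75 and 0.22. These genes are themselves among the markers by which cells were left out, so nothing is read from this change.

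**Figure D2:**
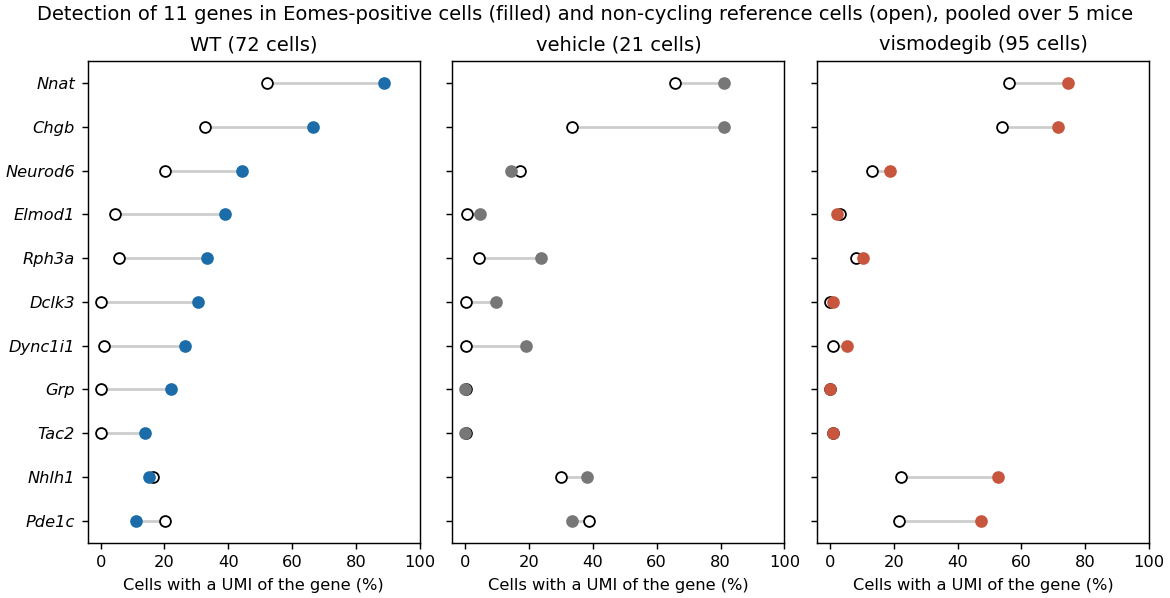
Percent of Eomes-positive cells (filled) and of non-cycling reference cells (open) with at least 1 UMI of each of 11 genes (x axis), pooled over the 5 mice of each group. In WT 9 of the 11 genes lie to the right of the reference, while in vismodegib tumors Grp, Elmod1, Dclk3 and Tac2 lie at or near 0 and Nhlh1 and Pde1c lie well to the right at 52.6 and 47.4%.

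In vismodegib-treated tumors 6 genes were higher and 10 lower by the same criterion. Nnat was higher there as well, at 2422, 2803, 220, 1334 and 1687 CPM against 661 to 885, with vismodegib 3 below its reference (log2 difference 1.03, SE 0.205, adjusted p = 9.68e-05, edgeR). The call was lost without vismodegib 2 (0.69, adjusted p = 0.252, edgeR), and with cells holding other types' UMIs left out Nnat stood at −0.16, from vismodegib 4 alone. Nhlh1, a transcription factor of newly formed neurons, stood at 545, 467, 366, 412 and 375 against 92.7 to 240 and was higher in all 5 animals (1.28, SE 0.288, adjusted p = 0.000951, edgeR), and without vismodegib 4 the call was lost (1.15, adjusted p = 0.289, edgeR). It was found in 50 of 95 cells (52.6%) against 22.2% of the non-cycling reference. In WT the same gene was found in 15.3% of Eomes-positive cells and 16.3% of the non-cycling reference.

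The other 4 higher genes did not pass without vismodegib 5. Snhg11 had 50 UMIs in 3 of the 95 cells, with 22 in 1 cell. Chchd10, Nap1l5 and Atp1b1 had log2 differences of 2.09, 1.71 and 1.49. Without vismodegib 5 the log2 differences of Snhg11, Chchd10, Nap1l5 and Atp1b1 were 1.93, 0.59, 0.39 and 0.14 and did not pass. With at least 2 Eomes UMIs required, which left 9 cells each in WT 2 and vismodegib 5 and so removed both from the fit, they were −7.38, −0.43, −0.94 and −1.28, and the threshold and the lost animals cannot be told apart there. Pooled over all 5 vismodegib tumors, 1 of the 53 cells with 2 Eomes UMIs held 19 Snhg11 UMIs. All 10 lower genes but Hbb-bs, a hemoglobin gene, are high in astroglia or other non-neuronal cells. They included Fabp7 (−3.31, SE 0.485), Slc1a3 (−2.91, SE 0.594), Ednrb (−3.40, SE 0.831) and Aqp4 (−2.33, SE 0.502), none of which passed without vismodegib 4 (−2.59, −3.16, −2.17 and −0.96 in that order).

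**Figure D3:**
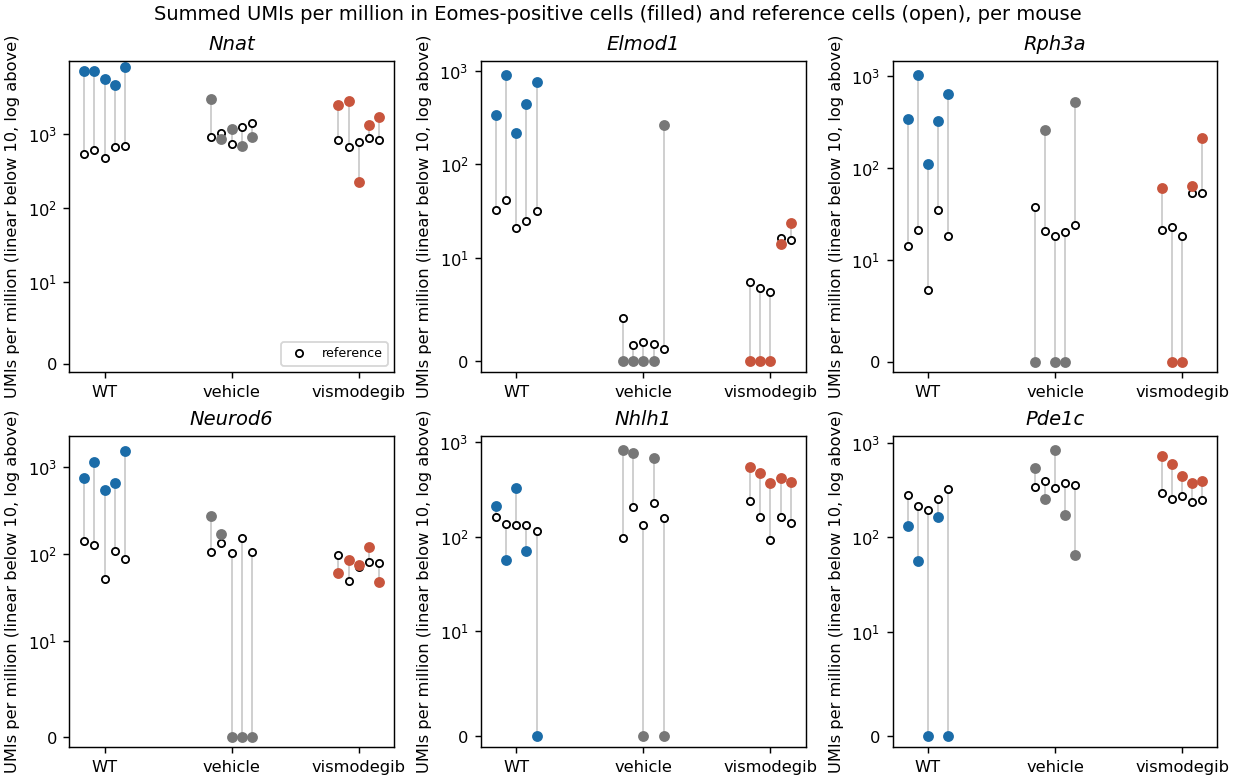
CPM (y axis, linear below 10 and logarithmic above) of 6 genes in the summed Eomes-positive cells (filled) and reference cells (open) of each mouse, joined by a line. Elmod1, Rph3a, Neurod6 and Nnat lie above the reference in all 5 WT mice, Nhlh1 and Pde1c lie above it in all 5 vismodegib mice, and vehicle points rest on 3 to 6 cells each.

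WT and vismodegib-treated tumors differed in what set the Eomes-positive cells apart. The difference between the vismodegib and the WT class effect was tested in the same fit. It passed for 11 genes in each direction (0.12% each) and, in all 4 fits, for 3 higher (0.0522%) and 5 lower (0.0869%). Elmod1 and Rph3a were lower by this measure, with −3.59 (SE 0.859, adjusted p = 0.0189) and −3.05 (SE 0.609, adjusted p = 0.000986, edgeR). Elmod1 was present in 2 of 95 vismodegib cells, at 14.2 and 23.4 CPM in vismodegib 4 and 5 and at 0 in the other 3 animals. Rph3a was found in 10.5% of cells there, against 8.19% of the non-cycling reference. Vehicle tumors were not part of this fit. Their Eomes-positive cells held 11 Rph3a UMIs (pooled ratio to the non-cycling reference 7.85, counting interval 3.87 to 14.3). That interval leaves out the spread between animals, and Rph3a stood at 522 CPM in vehicle 5, 255 in the next highest animal and 0 in vehicle 1. Elmod1 had 4 UMIs in vehicle, all in 1 cell.

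Nnat, Negr1 and Stmn4, a stathmin that binds tubulin, were lower by −1.81, −2.90 and −1.42 (SE 0.283, 0.682 and 0.329). Pde1c, a calcium- and calmodulin-dependent phosphodiesterase, was higher by 2.13 (SE 0.501, adjusted p = 0.0149, edgeR). It stood at 727, 595, 440, 376 and 398 CPM in vismodegib Eomes-positive cells, above the reference of every one of these animals (237 to 293), and at 0 to 163 in WT, below the reference of every one (194 to 321). Fbxw7, the substrate receptor of a ubiquitin ligase, was higher by 3.90 (SE 0.882, adjusted p = 0.0102, edgeR) and was found in 25.3% of vismodegib cells and 5.56% of WT cells. Snhg11 was higher by 5.88, of which 3.21 was the vismodegib difference from the 3 cells named above, and in WT its pooled level was 43.2 CPM in Eomes-positive and 166 in reference cells. With at least 2 Eomes UMIs required, and thus without WT 2 and vismodegib 5, the Snhg11 value was −3.61. Nnat and Snhg11 passed whichever 1 of the 6 animals was left out, while the other 6 genes did not. Without 1 animal and with no call, Elmod1 stood at −3.53 to −3.41 (WT 2 or 4, vismodegib 2 or 4), Rph3a at −2.66 and −2.45 (WT 2, vismodegib 4), Negr1 at −3.40 to −2.70 (WT 1, 2 or 4, vismodegib 2 or 4) and Stmn4 at −1.57 to −1.09 (WT 1 or 4, vismodegib 4 or 5). Likewise Pde1c stood at 1.89 to 2.48 (WT 1, 2 or 4, vismodegib 2 or 4) and Fbxw7 at 3.33 to 4.39 (WT 1, 2 or 4, vismodegib 5), and the adjusted p of these 6 genes ran from 0.0742 to 1.00 (edgeR).

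Grp, Dclk3 and Tac2 were found in few tumor cells. Grp was found in 0 of 116 tumor cells, Dclk3 in 2 of 21 vehicle and 1 of 95 vismodegib cells, and Tac2 in 0 of 21 and 1 of 95. The pooled Dclk3 level in vehicle, 46.8 CPM, rested on 2 UMIs (ratio to the non-cycling reference 42.3, counting interval 4.38 to 212). Neurod6 stood at 46.9 to 121 in vismodegib Eomes-positive cells, overlapping the reference range of 48.2 to 97.4. Lmx1a, which the rule also used, was held by 9 of the 72 WT cells and was at 0 in 8 of 10 tumors, and the cells are called by the rule. Whether the tumor cells picked by the rule are unipolar brush cells cannot be told from these data.

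The WT cells with the most Eomes stood apart from the others, a description since the rule used Eomes. Of the 28 WT cells with at least 3 Eomes UMIs, 14 held Grp, 17 Elmod1, 16 Rph3a, 16 Dclk3 and 19 Neurod6, and 1 held Nhlh1. In these cells Nnat reached 9384 CPM. Among the 30 WT cells with 2 Eomes UMIs, 2 held Grp and 6 held Elmod1, while 10 held Nhlh1. The steps below 3 Eomes UMIs followed no order, since 5 of the 14 cells with 1 Eomes UMI and a partner held Elmod1, 7 held Neurod6 and 0 held Grp. Just outside the rule, the 117 cells with 1 Eomes UMI and no partner held Grp in 7 and Elmod1 in 8 cells.

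Tumor cells with the most Eomes carried few of these genes. Of 15 tumor cells with at least 3 Eomes UMIs, 0 held Grp, Elmod1 or Dclk3, 2 held Rph3a and 7 held Nhlh1. Of 66 with 2 Eomes UMIs, 41 held Nhlh1 (62.1%) and 0 held Elmod1. Nhlh1 was held by 10 of the 35 tumor cells with 1 Eomes UMI and a partner (28.6%) and, just outside the rule, by 152 of 290 cells (52.4%). Of the 31 vismodegib cells that entered with 1 Eomes UMI and a partner, 9 held Gabra6, the receptor subunit of mature granule neurons, against 1 of the 53 cells with 2 and 2 of the 11 with at least 3 Eomes UMIs, counts over pooled cells without a test. In the non-cycling vismodegib reference, 3.89% held Gabra6.

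**Figure D4:**
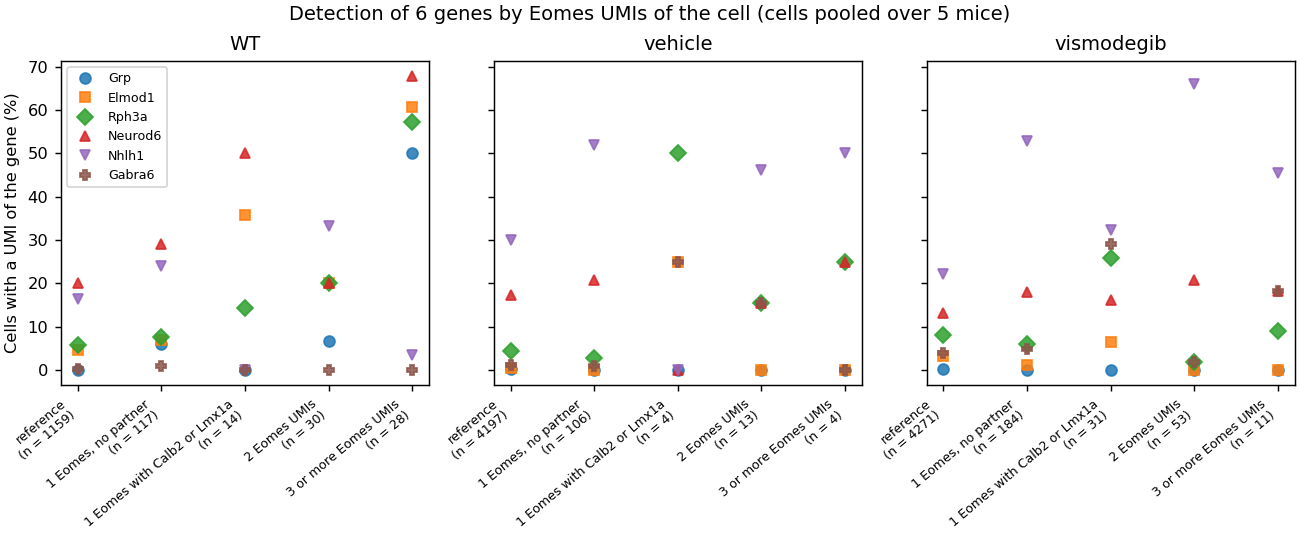
Percent of cells with a UMI of each of 6 genes (y axis) in the non-cycling reference and at each step of Eomes count (x axis, n cells given), pooled over the 5 mice of each group. In WT Grp, Elmod1, Rph3a and Neurod6 are highest at 3 or more Eomes UMIs, at 50, 60.7, 57.1 and 67.9% of 28 cells, whereas in vismodegib tumors Nhlh1 leads at 66% of 53 cells with 2 Eomes UMIs.

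Lists of genes with known roles are given beside the shares of all genes, 0.741% higher and 4.31% lower in WT and 0.316 and 2.28% in vismodegib. Of 8 tested genes of mGluR2 and GIRK signalling and 9 ionotropic glutamate receptors, 0 passed in either tissue. Of 13 glutamate release genes, 0 passed in WT, and Snap25 and Syt1 were higher in vismodegib.

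Among 21 rhombic lip transcription factors, Neurod6 was higher in WT and Insm1, Nhlh2 and Pax6 lower, while Nhlh1 alone was higher in vismodegib. Of 20 pan-neuronal genes, Celf4, Mapt, Meg3 and Stmn4 were higher and Snhg11 lower in WT, and Snhg11 and Tubb3 were higher in vismodegib. Of 22 granule neuron differentiation genes, Cbln1 was higher and Pcp4 lower in WT, and Gabra6 and Vsnl1 were higher in vismodegib. With the non-cycling reference and total-UMI scaling, where 0.556% of genes were higher and 0.313% lower in WT and 0.122 and 0.209% in vismodegib, Insm1, Nhlh2, Pax6, Mapt, Meg3, Tubb3, Gabra6, Vsnl1, Snap25 and Syt1 no longer passed. Of 25 adhesion and axon guidance genes, Chl1, L1cam, Nrp2 and Unc5d were higher in WT, but 0 of the 18 tested passed in that second setting.

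Hedgehog and cell cycle genes are tied to Mki67 and Top2a, whose absence the rule required. Of 11 Hedgehog genes, Ccnd1, Ccnd2, Mycn and Sfrp1 were lower in WT and Ccnd1, Ccnd2, Gas1 and Sfrp1 in vismodegib, and of 22 cell cycle genes 18 were lower in each tissue, beside 4.31% of all genes in WT and 2.28% in vismodegib. Against the non-cycling reference with total-UMI scaling, 0 of 5 and 0 of 9 tested genes passed.

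The mean of the WT and vismodegib class effects gave 60 higher (0.654%) and 732 lower genes (7.97%). Of those with the same sign in every animal and enough signal, the 12 with the largest positive values were Chn2, Chgb, Nnat, Timp2, Akap7, Pkib, Bbc3, Ehd3, Cbln1, Adcy1, Nptxr and Camk4. Chn2, Chgb, Nnat and Akap7 were among the 8 higher genes (0.139%) that passed in all 4 fits, where 21 (0.365%) were lower. The other 8 of the 12 did not pass against the non-cycling reference with TMM (adjusted p from 0.118 to 0.688, edgeR). In vismodegib tumors the Chn2 level leaned on cells that entered through Calb2 or Lmx1a. Its pooled level was 404 CPM in the 31 cells with 1 Eomes UMI and a partner. It was 16.1 in the 53 with 2 Eomes UMIs and 245 in the 11 with at least 3, against 98.8 in the non-cycling reference, without a test. The 8 with the largest negative values were Cdc20, Cdca7, Nuf2, Bub1, Aurkb, Cks2, Cdca2 and Bub1b, all but Cdca7 genes of mitosis. The rule required 0 UMIs of Mki67 and Top2a in the Eomes-positive cells and not in the reference, so nothing is read from these 8, and all but Cdca7 were too low to be tested against the non-cycling reference.

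Markers of other cells were found in the Eomes-positive cells of every group. In WT Eomes-positive cells, Purkinje markers summed to 0 to 168 CPM against 615 to 1870 in the reference, microglial markers to 0 to 93.2 against 25.5 to 181, and astrocyte markers to 128 to 327 against 541 to 964. Of the GABAergic markers, Slc32a1, Pax2 and Slc6a5 were at 0, while Gad2 stood at a pooled 25.9 CPM against 24.98 in the reference, Gad1 at 8.64 against 40.7 and Ptf1a at 8.64 against 6.98. All 4 markers of cerebellar nuclei neurons were at 0 in WT, but summed to 0 to 170 CPM in vehicle and 0 to 73.3 in vismodegib Eomes-positive cells. In vehicle Eomes-positive cells, astrocyte markers summed to 0 to 38888 against 532 to 1745 and microglial markers to 0 to 5350 against 29.1 to 294. In vehicle 5, 1 cell held 593 UMIs of Apoe and 82 of microglial markers among its 4568. In vismodegib Eomes-positive cells, astrocyte markers summed to 303 to 1760 against 1157 to 2702 and choroid plexus markers to 0 to 659 against 21.5 to 5848. Granule lineage markers, which unipolar brush cells share in part, stood at 3461 to 7779 in WT and 5789 to 10724 in vismodegib Eomes-positive cells. Their reference levels were 4698 to 5716 in WT and 4703 to 7635 in vismodegib, on a list that holds Rbfox3, which the reference required. The part of these cells in the gene differences was not tested beyond the alternatives given.

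Between conditions, the Eomes-positive cells themselves were compared in the 11 animals with at least 5 of them, in which 445 genes could be tested. Against WT, 52 genes were higher (11.7%) and 45 lower (10.1%) in vismodegib tumors, and 17 were higher (3.82%) and 17 lower (3.82%) in vehicle tumors, where only vehicle 2 and 5 entered. Without WT 4 these totals fell from 97 to 46 in vismodegib and from 34 to 16 in vehicle, with 413 genes tested. Without vehicle 2 or vehicle 5, 925 and 918 genes were tested and 1 vehicle animal was left, so those totals are not compared with these. The vismodegib total was 61 and 62 without vismodegib 2 and 4, and the vehicle total 20 and 21 without WT 1 and 3. Elmod1 and Neurod6 were lower in vismodegib by −4.81 (SE 0.908, adjusted p = 0.000593) and −3.09 (SE 0.487, adjusted p = 0.000106, edgeR). Pde1c was higher by 2.38 (SE 0.617), as were Miat, a long noncoding RNA (2.88, SE 0.602), Srrm3, a splicing factor (2.37, SE 0.552), and Fam213b (2.61, SE 0.79), which did not pass without WT 4 (2.74, adjusted p = 0.0625, edgeR). Gm13826, Akap7 and the ribosomal gene Rpl37 were the other leading lower genes. All of these also separate age, genotype and device.

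In vehicle against WT the leading higher genes included Cre, Fos, Cst3 and Bin1, and the leading lower genes Rpl38, Gm10036, Stmn1, Ptma and Neurod6. The Cre call was fixed by genotype, since WT mice lack the transgene. In reference cells a list of 7 stress genes was also higher in vehicle, at 1983 to 2753 CPM against 324 to 550 in WT. The genes named here are not shown to be particular to the Eomes-positive cells. Neurod6 had a log2 difference of −3.25 (SE 0.852, adjusted p = 0.0192, edgeR). Without vehicle 5, Neurod6 (−2.32, adjusted p = 0.164, edgeR), Cst3, Bin1, Gm10036 and Stmn1 did not pass, nor did Rpl38 without WT 4. It stood at 270 and 170 CPM in vehicle 1 and 2 and at 0 in the other 3 vehicle tumors, against 545 to 1538 in WT. In the reference cells of those groups it stood at 102 to 151 and 50.6 to 139.

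Vismodegib against vehicle gave 0 higher (0.0%) and 2 lower (0.449%) of 445 genes, Fth1 (−2.05, SE 0.45) and Cst3 (−2.01, SE 0.475). Both were highest in vehicle 5, at 3589 and 2349 CPM. In that animal 1 Eomes-positive cell held 82 UMIs of 8 microglial markers among its 4568, with 47 of Fth1 and 31 of Cst3. With this cell and a like cell of vismodegib 4 left out, 0 genes passed in either direction in edgeR, with 42 at an unadjusted p under 0.05. Without vehicle 5, Fth1 and Cst3 stood at −0.78 and −0.34. Without vehicle 2, which left vehicle 5 as the only vehicle animal with its spread taken from the other groups, 66 of 925 tested genes passed, and without any other single animal 0 or 1 passed.

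Whether vismodegib moved the Eomes-positive cells differently from the reference cells, cycling ones included, was tested as a difference of class effects. It was higher for 1 gene (0.0103%) and lower for 28 (0.287%) of 9753 in vismodegib minus vehicle, and higher for 35 (0.359%) and lower for 9 (0.0923%) in vehicle minus WT. With the 2 cells of at least 10 microglial UMIs left out, the counts were 1 and 11 in the former and 14 and 5 in the latter. In all 4 fits, 1 gene was higher (0.014%) and 13 lower (0.181%) in vismodegib minus vehicle, and 23 were higher (0.321%) and 3 lower (0.0419%) in vehicle minus WT. Elmod1 and Chn2 were among the 13. The vehicle Elmod1 level rested on 4 UMIs in 1 cell of vehicle 5, which had entered with 1 Eomes UMI and a partner. Nnat was called in both contrasts, higher in the first and lower in the second. In vehicle Eomes-positive cells it stood at 2975, 850, 1161, 682 and 913 CPM against 718 to 1393 in the reference. Vehicle 2 and 5 were the only vehicle animals in this fit. Without replicate 5 of each group, which left vehicle 2 alone with its spread taken from the other groups, 0 genes passed in vismodegib minus vehicle and 1 in vehicle minus WT, and Nnat stood at 2.21 in the former (adjusted p = 0.968, edgeR). It did not pass there without replicate 2 of each group either (2.22, adjusted p = 0.294, edgeR).

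The transgene was present in the tumor cells picked by the rule. Cre was detected in 12 of 21 vehicle and 55 of 95 vismodegib Eomes-positive cells, against 79.6 and 58.4% of reference cells, and in 1 of 72 WT cells. Over the 10 tumors the Eomes-positive cells held Cre at 762 CPM, the reference cells 1441 and the C1qb cells 230. They exceeded the C1qb cells, which lie outside the Math1-Cre lineage, by 532 ± 403 (SD, n = 10, higher in 9 of 10 tumors, 2-sided exact sign permutation, adjusted p = 0.0234). As shares of cells at 500 UMIs each, that difference was 13.1 percentage points (exact adjusted p = 0.133). The difference from the reference of −679 ± 920 did not pass (exact sign permutation, adjusted p = 0.117), whereas at 500 UMIs it was −17.2 points and passed (exact adjusted p = 0.0469). By treatment, Cre stood at 341 to 1161 CPM in vehicle Eomes-positive cells against 1001 to 2777 in their reference, lower in 4 of 5 tumors, and at 351 to 1114 against 637 to 1072 in vismodegib, higher in 3 of 5. SmoM2/EYFP had 2 UMIs in the vehicle and 3 in the vismodegib Eomes-positive cells, too few to compare.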

How the data were processed

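Digital expression tables of Drop-seq libraries from 15 mice (5 WT, 5 vehicle and 5 vismodegib) were analysed. The authors made and deposited them as raw UMI counts per gene and barcode, with Drop-seq Tools and STAR on mm10 with added Cre and SmoM2/EYFP sequences, after tumor libraries had been screened against mm10 and hg19 to remove spiked-in human cells. The submitters' processing notes name bcl2fastq 2.18, STAR 5.4b and Seurat 2.3.0. Only the lower limits of 500 UMIs and 500 genes were applied here, and no doublet caller was run. The study also applied upper limits and removed doublet clusters, and limits of 5 SD above the median served as an alternative.

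Shares were compared with 2-sided exact permutation tests over animals. UMI counts were summed per animal and class, and edgeR 4.0.16 in R 4.3.3 tested the sums (quasi-likelihood, TMM, filterByExpr, robust, animal as a block between classes, Benjamini-Hochberg over all genes tested, called at adjusted p under 0.05), with DESeq2 1.42.0 as an alternative. The design asked for 10 cells per sum. No vehicle tumor reached 10, so the mean of 3 groups became that of WT and vismodegib, and comparisons between conditions used 5 cells. The planned test of Calb2 and Lmx1a in cells with 2 Eomes UMIs had too few animals and is given as counts. The animal is the replicate, and tests were checked on simulated data. Between the classes, TMM placed log2 differences below their true size, and most of the true ones were not called. It recovered 11% of 4-fold and 2% of 2-fold changes in WT, and 39 and 3% in vismodegib. Vismodegib against vehicle recovered 78.4% of 4-fold and 18.8% of 2-fold changes, and vehicle against WT 65.2 and 24.4%. These changes were put into 88 and 80 of 431 tested genes in the former and 92 and 86 of 495 in the latter. In the data, 2 of 445 genes passed in vismodegib against vehicle, and recovery with so few changed genes was not tested. Genes that did not pass are therefore not shown to be alike. Genes named by rule were the listed genes, the 12 highest and 8 lowest called genes whose mean log2 CPM reached 5, with 1 sign in every animal, and up to 5 per direction between conditions with groups that do not overlap.

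The cells and gene lists were chosen with earlier results of these data known. Total-UMI scaling, the 5-cell sums, the criterion of 4 fits, the vismodegib comparisons with WT and the removal of cells with markers of other types were chosen after seeing the data. Positions are from GENCODE M21 on mm10, and symbols were matched by name. Some genes of the lists and of the named sets are not reported here.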

Additional observations from a re-analysis of the deposited data

Results flagged for a closer look

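Among 43 sets of 5 values per group, 11 held a value far from the others, where chance gives 1 in 20. They were Eomes in WT 5 (3204 CPM in the Eomes-positive cells), Lmx1a in vehicle 5 (130) and vismodegib 5 (23.4), Grp in WT 5 (1410), Chgb in WT 5 (3332), Fbxw7 in WT 3 (218), Nnat in vehicle 1 (2975), Dclk3 in vehicle 1 (270) and vismodegib 1 (60.6), Elmod1 in vehicle 5 (261) and Chn2 in vismodegib 5 (445). These sums rest on 3 to 18 cells. In the sets of Lmx1a in vehicle and in vismodegib tumors, Dclk3 in vismodegib and Elmod1 in vehicle the other 4 values were 0, so that any single detection met the limit and the rate of 1 in 20 does not apply. Vismodegib 4 stood apart in the share of Eomes-positive cells, with 1.24% of kept cells and 1.96 per 100 Eomes-positive plus reference cells, and held 52 of the 95 vismodegib cells.

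The tested difference of class effects between vismodegib and WT (edgeR, log2, on 3 animals each) was 5.88 for Snhg11, 3.90 for Fbxw7, 2.13 for Pde1c, −3.59 for Elmod1, −3.05 for Rph3a, −2.90 for Negr1, −1.81 for Nnat and −1.42 for Stmn4. Between vismodegib and vehicle, 1 gene was higher (Nnat) and 13 were lower in all 4 fits, and between vehicle and WT 23 were higher and 3 lower, the latter Draxin, Nnat and Ntrk3. The 23 included the microglial genes C1qb, Ctss and Tyrobp, and 1 cell of vehicle 5 held 82 microglial UMIs. Without this cell and a like cell of vismodegib 4, C1qb, Ctss and Tyrobp stood at −7.62, −6.84 and −7.18. These genes are on the microglial list by which the cells were left out, so nothing is read from this change.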

How the results depend on the processing

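The 4 differences in shares kept their direction in every alternative run. Thinning to 500 UMIs gave 0.0519 percentage points and 0.165 per 100 for vismodegib minus vehicle. Their sizes moved with the rule. At least 2 Eomes UMIs, at least 1 and no condition on cycling gave 0.322, 1.17 and 0.784 points for vismodegib minus vehicle. For WT minus vehicle these gave 0.650, 1.70 and 1.15 points. With the non-cycling reference the differences per 100 were 5.25 for WT and 1.42 for vismodegib. Replicate numbers did not pair the animals (median correlation of same-numbered deviations 0.024, 5 of 15 pairs above 0.1), and with the replicate number as a block the differences of 0.812, 0.509, 2.47 and 0.861 had an exact p of 0.0625, the smallest that 5 pairs allow. The block gave 4 genes in vismodegib against vehicle. Without each animal in turn, the shares of kept cells differed by 0.779 to 0.847 (WT) and 0.361 to 0.568 (vismodegib), and those per 100 by 2.35 to 2.62 and 0.652 to 0.938.

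Counts of called genes moved most. For Eomes-positive against reference cells, the mean (792), WT (464), vismodegib (238) and vismodegib minus WT (22) came to 360, 162, 48 and 4 with DESeq2, to 195, 144, 45 and 8 with a depth-matched reference, to 330, 187, 71 and 7 with at least 2 Eomes UMIs (which also removes WT 2 and vismodegib 5, at 9 cells each) and to 129, 267, 0 and 3 without cells holding other types' UMIs, where only vismodegib 4 kept 10 cells and its 0 calls are therefore no evidence of absence. The non-cycling reference gave 43, 57 and 20 for the first 3, and 37, 50, 19 and 13 with total-UMI scaling, which alone gave 294 in WT. Sums of at least 5 cells gave 1311 and 990, and no filter 445 in vismodegib and 12 in the difference. Leaving out an animal gave 371 to 661, 170 to 476, 80 to 239 and 4 to 17, with WT at 200, 241 and 256 without WT 1, 2 and 4, vismodegib at 86 and 123 without vismodegib 4 and 5, and the difference at 5 without WT 4. The cause was not tested.

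Between conditions, vismodegib against vehicle gave 1 gene with DESeq2, 5 with no filter and 0 with tumors alone, the set term, thinned sums, total-UMI scaling, all animals or without the microglial cells. Vehicle against WT (34) gave 4 thinned and 17 without the microglial cells, and vismodegib against WT (97) gave 37 with no filter, 22 thinned and 52 with all animals. Genes tested numbered 445 in the main fit, 140 thinned, 242 with all animals and 14041 with no filter, so these counts do not share a scale. Ranges without 1 animal were 0 to 66, 16 to 87 (87 without vehicle 2, 16 without WT 4) and 46 to 189 (46 without WT 4, 189 without vehicle 5). Class-effect differences gave 61 with total-UMI scaling and 12 without the microglial cells for vismodegib minus vehicle (29, range 0 to 40), and 29 with no filter and 19 without those cells for vehicle minus WT (44, range 1 to 43).

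Genes that turned sign were Pcp4 in WT (0.88 with the depth-matched reference) and Snhg11, Chchd10, Nap1l5 and Atp1b1 in vismodegib (−7.38, −0.43, −0.94 and −1.28 with at least 2 Eomes UMIs and so without WT 2 and vismodegib 5). Without cells of other types, Calb1 (0.22, itself a marker of that filter) and Pcp4 (0.18) turned in WT and Nnat (−0.16) and Sparcl1 (0.27) in vismodegib. With at least 2 Eomes UMIs so did Snhg11 in vismodegib minus WT (−3.61) and Nptxr in the mean (−0.59). In vehicle minus WT so did C1qb, Ctss and Tyrobp without replicate 5 of each group (−7.26, −6.59 and −6.82, in ranges without 1 replicate that reached 10.50, 11.85 and 11.12). They also turned without the microglial cells (−7.62, −6.84 and −7.18), which were picked by a list that holds these genes. As shares of cells at 500 UMIs, SmoM2/EYFP differed by −0.757 points from the reference, and Cre by −17.2 from the reference (exact adjusted p = 0.0469) and 13.1 from C1qb cells (0.133). SmoM2/EYFP ranged from −21.7 to 16.2 and −12.5 to 39.6 CPM without 1 tumor, the negative values without vehicle 3, and Cre from −787 to −519 and 476 to 598.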
